A study of Mus musculus with 6 samples.

Results

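Interferon-induced genes are the genes that cells switch on when interferon binds its receptor, and 38 of them were chosen by name: antiviral effectors and enzymes of protein modification by ISG15, cytoplasmic RNA sensors with Stat2, GTPases induced most strongly by interferon gamma, and the IFITM membrane proteins. The interferon regulatory factors and the other STATs were left out of the list. A probe set, a group of short oligonucleotides read together on an Affymetrix array, stood for a gene only where the array annotation gave that gene's symbol alone. By this rule 36 of the 38 genes had at least 1 probe set, of 18193 genes in all, and these genes held 53 of the array's 45037 probe sets. Isg15 and Ifi44 had no probe set under their symbol alone, so their expression was not analysed here. Isg15 is still counted in the search of promoter motifs below. After the dimmest 40% of probe sets were left out, 34 of the 36 genes remained, represented by 50 probe sets. Mx2, a relative of the antiviral GTPase Mx1, read 3.4 to 33.1 in DKO cells and 3.9 to 110 in WT cells, and Oasl1, a synthetase-like protein, read 6.4 to 58.9 in DKO cells and 12.0 to 41.7 in WT cells, too dim to be tested.

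The study set mice lacking both nuclear receptors Nr4a1 and Nr4a3 (DKO) against wild-type (WT) mice, with 3 arrays of each genotype. The cells were lineage-negative, Sca1-positive bone marrow cells, a population enriched for blood stem cells, sorted from mice 2 to 3 weeks old. Each array carried RNA pooled from 10 to 20 mice, and the labels call the arrays of a genotype biological replicates. DKO mice were bred from Nr4a1-/- and Nr4a3-/- parents on a mixed C57BL/6 and 129SvJ background, and the labels state no separate strain for WT mice. The deletions were inherited and so present in every cell of the animal, not in blood cells alone.

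Type I interferons, the alpha and beta families, bind the Ifnar1 and Ifnar2 receptor and lead to activity at interferon-stimulated response elements (ISRE) in gene promoters. Interferon gamma, made mainly by T and NK cells, binds Ifngr1 and Ifngr2 and leads to activity at gamma-activated sites (GAS). The gene sets overlap: the immunity-related and guanylate-binding GTPases of the mouse respond to both, and most strongly to interferon gamma, while genes such as Ifit1, Rsad2 and Oas1a mark the type I response. In mouse bone marrow both kinds of interferon are known to push resting stem cells into the cell cycle.

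The promoters of 4 GTPase genes and of 2 antiviral genes are shown because the results below turn on these sets of genes. Each line gives the 130 bases before the RefSeq transcription start, 5′ to 3′ on the gene's strand, with matches to either motif in capitals.
Igtp, plus strand, GRCm38.p6 chr11:58199426-58199555: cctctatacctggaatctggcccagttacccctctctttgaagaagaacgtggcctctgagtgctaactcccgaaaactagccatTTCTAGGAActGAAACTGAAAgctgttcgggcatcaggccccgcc
Irgm1, minus strand, GRCm38.p6 chr11:48871421-48871550: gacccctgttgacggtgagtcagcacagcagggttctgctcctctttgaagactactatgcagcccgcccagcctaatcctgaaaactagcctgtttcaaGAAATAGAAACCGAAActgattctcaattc
Gbp2, plus strand, GRCm38.p6 chr3:142620533-142620662: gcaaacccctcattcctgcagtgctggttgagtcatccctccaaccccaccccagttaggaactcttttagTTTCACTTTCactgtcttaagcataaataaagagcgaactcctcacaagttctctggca
Ifi47, plus strand, GRCm38.p6 chr11:49076457-49076586: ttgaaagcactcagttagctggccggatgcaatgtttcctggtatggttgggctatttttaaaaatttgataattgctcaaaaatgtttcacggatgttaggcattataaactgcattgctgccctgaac
Ifit1, plus strand, GRCm38.p6 chr19:34640759-34640888: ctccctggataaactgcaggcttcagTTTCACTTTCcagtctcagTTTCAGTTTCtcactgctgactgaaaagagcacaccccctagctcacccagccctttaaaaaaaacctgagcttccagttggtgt
Rsad2, minus strand, GRCm38.p6 chr12:26456453-26456582: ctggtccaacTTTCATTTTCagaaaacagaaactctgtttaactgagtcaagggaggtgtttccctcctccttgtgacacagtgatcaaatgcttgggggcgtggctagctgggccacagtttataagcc

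The motifs searched were GAAA, any 2 bases and GAAA again for ISRE, and TTCNNNGAA for GAS, on both strands, in the 250 bases before each start in the RefSeq promoter table. That table held an entry for 28 of the 38 genes, and the GTPase gene Iigp1 was among those without one. ISRE letters were found before 13 of these 28 genes (46.4%), against 936 of 27025 genes in the whole table (3.46%). GAS letters were found before 7 of the 28 (25.0%), against 2197 of the 27025 genes (8.13%). Among the roles, ISRE letters stood before 4 of 5 GTPase genes and 8 of 17 antiviral genes, and GAS letters before 1 of 5 and 5 of 17. In Igtp the GAS match lay 45 to 37 bases before the start and the ISRE match 34 to 25 bases before it, so the 2 did not overlap. In Irgm1 the capitals hold 2 overlapping ISRE matches, and in Bst2 a GAS match overlapped an ISRE match. Ifi47 held neither motif in this window, and none of the 3 IFITM genes held ISRE letters. A match describes letters in a window and was not tested as a binding site.

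All values are MAS5 signals, array brightness scaled by the authors so that each array has the same trimmed mean. Differences are DKO minus WT on the log2(signal + 16) scale with their standard errors, which understates the change of dim genes, and p-values are from limma with Benjamini-Hochberg adjustment over 27022 probe sets. A gene is represented by its brightest tested probe set unless another is named, and "rose" and "fell" are used only at an adjusted p below 0.05. Nr4a1 itself had signals of 8.0, 22.4 and 33.8 in DKO arrays, against 1110, 1269 and 816 in WT arrays (log2 difference -4.89 ± 0.42, adjusted p = 1.95e-04), while Nr4a3 was too dim to be tested. WT replicates 2 and 3 stood apart in opposite directions: the mean log2 level of monocyte and neutrophil markers, centred on each gene's mean over all 6 arrays, was -0.13 to 0.29 on the DKO arrays, and 1.17 on WT replicate 2, -1.12 on WT replicate 3 and -0.37 on WT replicate 1. The stem cell genes Kit, Cd34 and Mecom were measured on every array, with Mecom at 1194 to 1654 in DKO cells and 3418 to 5313 in WT cells. Because the samples are bulk sorted pools, fewer cells of a type and less RNA per cell cannot be told apart.

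Over all 34 genes, 1 rose in DKO cells, the GTPase Iigp1, against 1.08% of the 11529 genes tested, and 0 fell, against 0.633%, so 1 of 34 changed in either direction, against 1.71%. At an unadjusted p below 0.05 there were 12 of the 34, against 16.3% of all genes. Their median log2 difference was -0.21, against -0.01 over all genes, with 15 above 0 and 19 below, and 49.2% of all genes lay above 0. The roles divided: all 6 GTPases and all 3 IFITM genes lay above 0. Below 0 lay 16 of 21 antiviral genes and 3 of 4 genes of the sensor group. Genes and lists were chosen with earlier results of these data known, so this division is a description. Every DKO array was above every WT array for 9 of the 34 genes, a pattern that 10.7% of all genes tested showed, and below it for 5, which 11.3% of all genes showed.

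**Figure D1:**
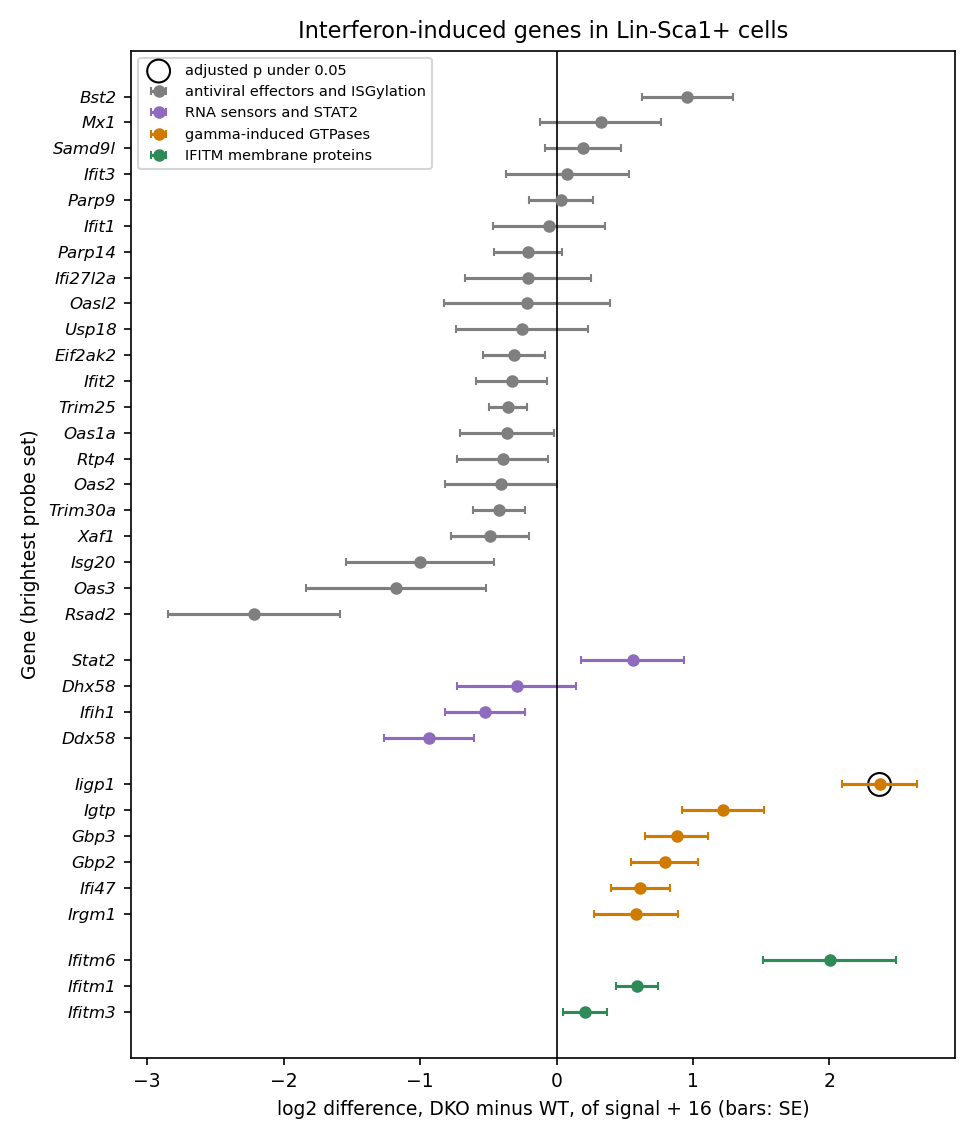
The log2 difference, DKO minus WT, of each of the 34 tested genes (x axis, log2 of signal + 16; bars are standard errors), with genes on the y axis grouped by role. Iigp1 (2.37) lies farthest to the right and Rsad2 (-2.22) farthest to the left, and the 6 GTPases all lie to the right of 0.

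The immunity-related and guanylate-binding GTPases coat and break open vacuoles that hold parasites or bacteria. All 6 were higher on every DKO array than on any WT array, a pattern that 10.7% of all genes showed. Their median log2 difference was 0.84, with a range of 0.58 to 2.37, and 1 of the 6 rose, against 1.08% of all genes. At an unadjusted p below 0.05 there were 5 of the 6, against 16.3%. The mean level of the 6, centred on each gene's mean over the 6 arrays, was 0.61, 0.29 and 0.71 on the DKO arrays. On the WT arrays it was -0.63, -0.58 and -0.40. The difference was above 0 for each of the 6 genes in the fit reported and in the 15 alternatives that gave each gene a new estimate on its brightest probe set.

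Iigp1, a GTPase that attacks the vacuole of Toxoplasma in mouse cells, had signals of 2542, 2138 and 2401 in DKO cells and 610, 305 and 467 in WT cells. The genotypes did not overlap, and the lowest DKO array was above the highest WT array by more than the whole spread within either genotype. Iigp1 averaged 2361 ± 205 in DKO cells and 461 ± 153 in WT cells (SD, n = 3 each), a log2 difference of 2.37 ± 0.28 (adjusted p = 0.00176), or 5.16-fold on the offset scale. Its other probe set read 819, 749 and 782 in DKO cells and 267, 231 and 133 in WT cells, and it rose as well (1.87 ± 0.33, adjusted p = 0.0196). The call on the brighter probe set held in 6 of 6 cases with 1 array left out, with log2 differences of 2.11 to 2.59 and a highest adjusted p of 0.0239.

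Igtp, also called Irgm3, regulates the other immunity-related GTPases at membranes. Its signals were 2253, 2054 and 3840 in DKO cells and 772, 1533 and 1162 in WT cells. The third DKO array was the highest, and no WT array reached the lowest DKO array. The log2 difference of 1.22 ± 0.30 did not pass the threshold (adjusted p = 0.0786). Without WT replicate 2 it was 1.45 with an adjusted p of 0.0376, and in the other 5 cases with 1 array left out the adjusted p was 0.116 to 0.249, with a lowest difference of 0.94 without DKO replicate 3.

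Gbp3, a guanylate-binding protein, had signals of 2271, 2170 and 2553 in DKO cells and 1010, 1171 and 1668 in WT cells. The DKO arrays lay close together and above all WT arrays, of which the third was highest. The log2 difference was 0.88 ± 0.23 (adjusted p = 0.0969), and without WT replicate 3 it was 1.09 with an adjusted p of 0.0484. In the other 5 cases with 1 array left out the adjusted p was 0.157 to 0.282, with a lowest difference of 0.73 without WT replicate 1. Gbp2, a guanylate-binding protein that is recruited to pathogen vacuoles, had 1389, 1139 and 1402 in DKO cells and 613, 901 and 749 in WT cells (0.79 ± 0.25, adjusted p = 0.158). The genotypes did not overlap on this probe set or on Gbp2's other one (0.82 ± 0.32, adjusted p = 0.263), whose design can also bind related transcripts.

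Ifi47, another immunity-related GTPase, read 3244, 2230 and 2659 in DKO cells and 1776, 1491 and 2004 in WT cells (0.61 ± 0.21, adjusted p = 0.210). Irgm1, a regulatory member that protects the cell's own membranes and is needed for the stem cell pool in mice, read 670, 418 and 657 in DKO cells and 393, 342 and 390 in WT cells (0.58 ± 0.31, adjusted p = 0.416). For both genes the second DKO array was the lowest of its genotype and still above the WT arrays. Neither difference passed the threshold.

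**Figure D2:**
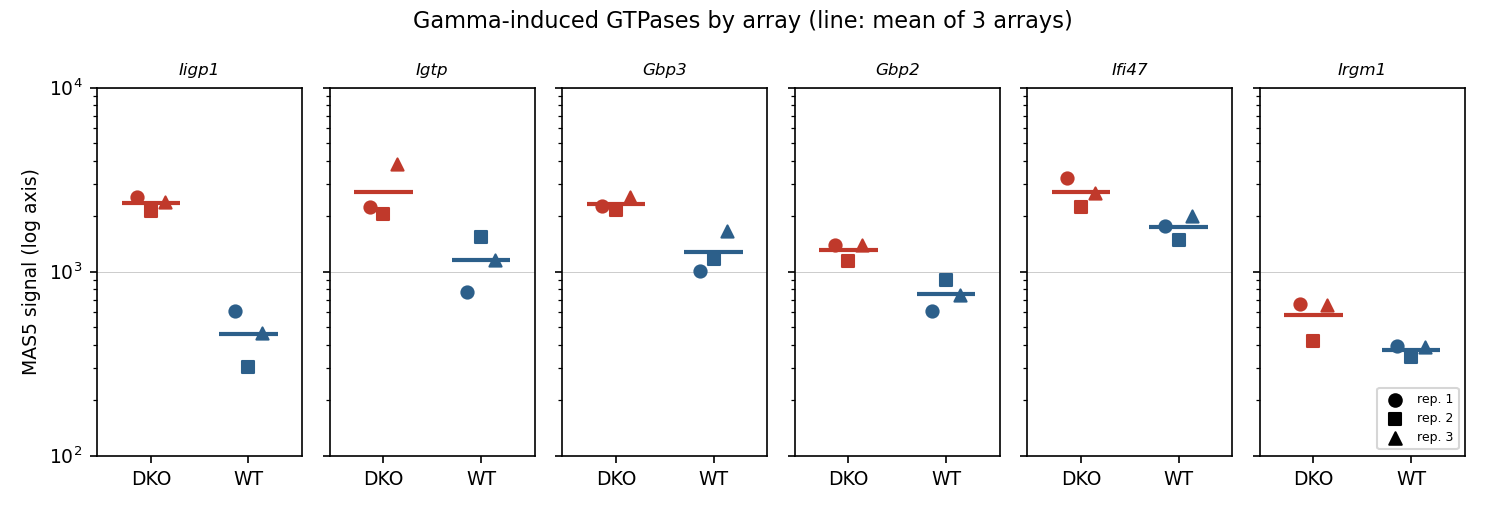
MAS5 signal (log axis) of the 6 GTPases on each array, with DKO left of WT, a symbol for each replicate and a line at the mean. No WT array reaches the lowest DKO array for any of the 6 genes, and the gap is widest for Iigp1.

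IFITM proteins sit in membranes and block the fusion of enveloped viruses, and in mice Ifitm6 is best known from myeloid cells. Ifitm6 had signals of 1598, 1076 and 1524 in DKO cells and 319, 809 and 137 in WT cells. The genotypes did not overlap, and WT replicate 2 was the highest of the WT arrays. The log2 difference was 2.00 ± 0.49 (adjusted p = 0.0756), and without WT replicate 2 it was 2.62 with an adjusted p of 0.00394. Without WT replicate 3, the lowest array, it was 1.41 (adjusted p = 0.115), and none of the 5 cases that kept WT replicate 2 passed, with adjusted p up to 0.226. WT replicate 2 was also the array with the highest monocyte and neutrophil marker signal, 109978 summed over the list, against 39933 to 65301 on the DKO arrays. The summed signal of mast cell, basophil and eosinophil markers was 35997 to 43632 on the DKO arrays. On WT replicates 1, 2 and 3 that sum was 8326, 18236 and 6142. The part of any of these cells in Ifitm6's values was not tested. Ifitm1 read 8884, 7503 and 9432 in DKO cells and 5275, 5935 and 5880 in WT cells, with no overlap (0.59 ± 0.15, adjusted p = 0.0907). Ifitm3, the best studied restriction factor of the family, read 9468, 10876 and 13371 in DKO cells and 10320, 10024 and 8612 in WT cells, and the genotypes overlapped (0.21 ± 0.16, adjusted p = 0.593). None of the 3 passed the threshold, and 2 had an unadjusted p below 0.05, against 16.3% of all genes.

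Of the 21 antiviral and ISGylation genes tested, 0 rose and 0 fell in limma. At an unadjusted p below 0.05 there were 4 of the 21, against 16.3% of all genes. The median log2 difference of the 21 was -0.31, their range -2.22 to 0.96, and their lowest adjusted p 0.123. The mean level of the 21 was -0.09, -0.16 and -0.25 on the DKO arrays and 0.21, 0.17 and 0.10 on the WT arrays. The 2 genotypes did not overlap in this mean, which takes Xaf1 on its brighter probe set (-0.49). Xaf1's other probe set was at 3.95, and whether the separation holds with it was not tested. In the 43 further type I-induced genes the mean level was 0.05, -0.08 and 0.01 on the DKO arrays. On the WT arrays it was 0.07, 0.07 and -0.12, so the genotypes overlapped there. Among the single genes 4 of the 21 separated, Bst2 upward and Trim25, Trim30a and Xaf1 downward. Over all genes tested, 10.7% separated upward and 11.3% downward.

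**Figure D3:**
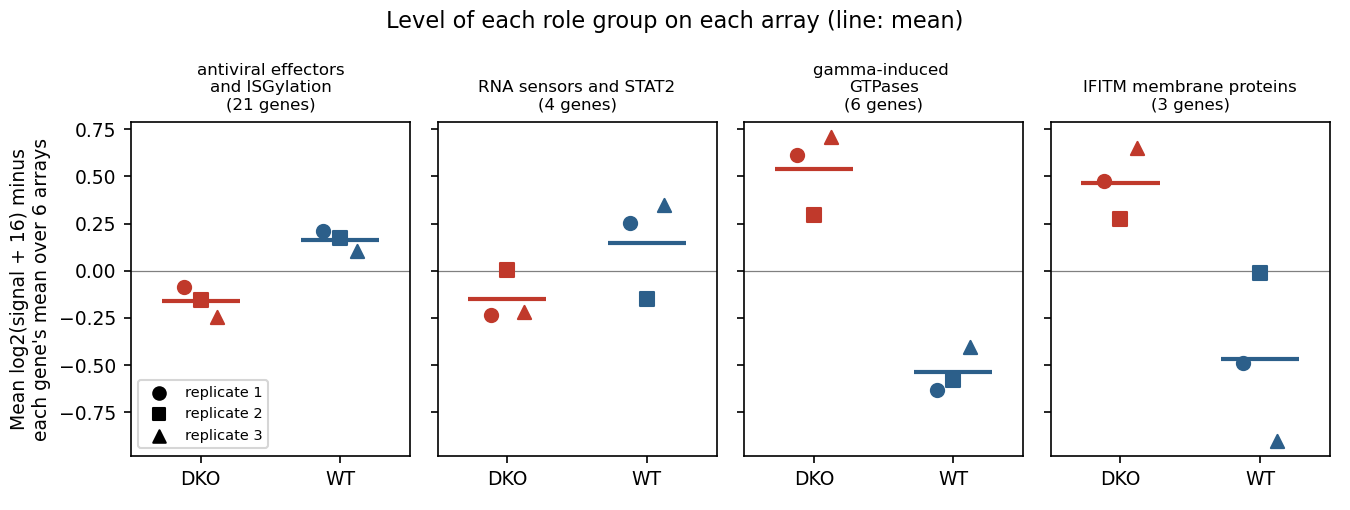
Mean log2(signal + 16) of the genes of each role on each array, after each gene's mean over the 6 arrays was taken off (y axis), with DKO left of WT and a line at the mean of the 3 arrays. The GTPases lie at 0.29 to 0.71 in DKO arrays and -0.63 to -0.40 in WT arrays. The antiviral genes lie at -0.25 to -0.09 in DKO arrays and 0.10 to 0.21 in WT arrays. The antiviral mean takes Xaf1 on its brighter probe set, and Xaf1's other probe set had the opposite direction.

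Among the classical type I genes, the IFIT proteins, which bind foreign RNA, did not pass the threshold. Ifit1 read 282, 783 and 349 in DKO cells and 443, 321 and 611 in WT cells, and the genotypes overlapped (-0.05 ± 0.41, adjusted p = 0.972). Ifit2 and Ifit3 had log2 differences of -0.33 and 0.08. The 2'-5' oligoadenylate synthetase family has active enzymes that switch on RNase L. In this family Oas1a was at -0.36, Oas2 at -0.40, Oas3 at -1.18 and Oasl2 at -0.22, all with overlapping arrays. Outside the 34 genes, Oas1b was at 0.35 (adjusted p = 0.780) and Oas1c at -0.46 (adjusted p = 0.446). Oas3 read 188, 272 and 23.3 in DKO cells and 462, 224 and 218 in WT cells, and the third DKO array was by far the lowest. Mx1, a GTPase against influenza viruses, was at 0.32 with dim signals, 61.6 to 113 in DKO cells and 52.9 to 77.2 in WT cells. Usp18, the enzyme that removes ISG15 and dampens Ifnar signalling, was at -0.25, and Eif2ak2, the kinase PKR, at -0.31. The chaperone Rtp4 (-0.39) and the small membrane protein Ifi27l2a (-0.21) also had overlapping arrays. So did Samd9l (0.19), which restrains blood cell growth, and the ADP-ribosyltransferases Parp9 (0.03) and, on its brightest probe set, Parp14 (-0.21). Parp14's other tested probe set was lower on every DKO array than on any WT array (-0.99, adjusted p = 0.263).

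Rsad2, which encodes the antiviral radical SAM enzyme viperin, had the lowest log2 difference of the 34 genes. Its signals were 1383, 722 and 664 in DKO cells and 4156, 13247 and 1259 in WT cells. WT replicate 2 was by far the highest array, and WT replicate 3 was below DKO replicate 1, so the genotypes overlapped. The log2 difference was -2.22 ± 0.63 (adjusted p = 0.123). Without WT replicate 2 it was -1.38 (adjusted p = 0.198), and without WT replicate 3 it was -3.06 (adjusted p = 0.0104), so the call depended on which WT pool was included. Rsad2's other 2 probe sets showed the same high WT replicate 2, with log2 differences of -2.01 ± 0.80 and -1.28 ± 0.63 (adjusted p = 0.281 and 0.380). Isg20, an RNA exonuclease, was likewise highest on WT replicate 2: it read 308, 177 and 322 in DKO cells and 518, 1344 and 217 in WT cells (DKO over WT 0.50 on the offset scale, adjusted p = 0.433). Monocyte and neutrophil marker signal was highest on WT replicate 2 and, as a mean level, lowest on WT replicate 3. The mean level of B lineage and plasma cell markers was also highest on WT replicate 2 (0.49) and lowest on WT replicate 3 (-0.65). WT replicate 3 was the lowest WT array for Rsad2 and Isg20 too. The part of any of these cells in the values of Rsad2 and Isg20 was not tested.

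Bst2, or tetherin, which holds budding virus at the cell surface, ran against the direction of most antiviral genes. It read 406, 464 and 422 in DKO cells and 202, 173 and 277 in WT cells (0.96 ± 0.33, adjusted p = 0.211). The arrays separated, but the difference did not pass the threshold. Bst2 is also a marker of plasmacytoid dendritic cells in mice, of whose 11 tested markers 0 rose and 0 fell, while 8 lay above 0. At an unadjusted p below 0.05 there were 2 of the 11, both higher in DKO cells, against 16.3% of all genes. Siglech was at 1.77 (adjusted p = 0.265), with overlapping arrays, and Clec10a at 1.25 (adjusted p = 0.166). The 3 markers below 0 were Spib at -1.08, Ccr9 at -0.66 and Tcf4 at -0.40. The part of such cells in Bst2's values was not tested. The ubiquitin ligase Trim25, which activates the sensor RIG-I, read 8556, 10459 and 10634 in DKO cells and 13055, 11974 and 12788 in WT cells (-0.36 ± 0.14, adjusted p = 0.262). Trim30a had a log2 difference of -0.42 (adjusted p = 0.348).

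Xaf1, a partner of the apoptosis inhibitor XIAP, gave opposite answers on its 2 probe sets. The brighter of them over all 6 arrays read 375, 364 and 353 in DKO cells and 526, 538 and 487 in WT cells (-0.49 ± 0.28, adjusted p = 0.472). The other read 302, 869 and 682 in DKO cells and 37.0, 35.1 and 3.5 in WT cells, and it rose (3.95 ± 0.54, adjusted p = 0.00409). All 3 of these WT signals lie below the filter's limit of 53.2, so this probe set entered the test through its DKO signals. Of all 27022 probe sets tested, 1.37% changed in either direction. On both probe sets of Xaf1 the genotypes separated, in opposite directions. No direction for Xaf1 follows from the pair, since which transcript each probe set reads was not tested. Of the 16 further tested probe sets of these genes, 3 had the opposite sign to the brightest one, in Rtp4, Xaf1 and Ddx58.

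**Figure D4:**
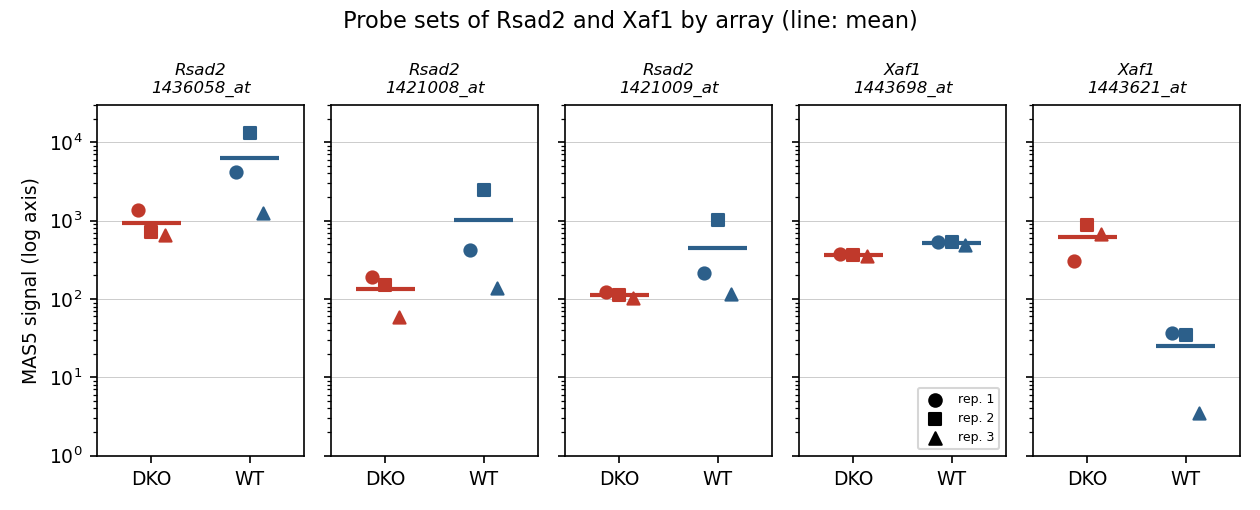
MAS5 signal (log axis) of the 3 Rsad2 and 2 Xaf1 probe sets on each array, with DKO left of WT and a line at the mean. WT replicate 2 is the highest array on all 3 Rsad2 probe sets, and the 2 Xaf1 probe sets separate the genotypes in opposite directions.

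The RNA sensors and Stat2 had a median log2 difference of -0.41, with 0 of 4 past the threshold in either direction. At an unadjusted p below 0.05 there was 1 of the 4, against 16.3% of all genes. Ddx58, which encodes the viral RNA sensor RIG-I, read 233, 232 and 368 in DKO cells and 500, 463 and 655 in WT cells, with no overlap (-0.94 ± 0.33, adjusted p = 0.216). Its other probe sets read -0.58 and 0.85, so they did not share a sign, and the gene lies within 10 Mb of Nr4a3 on chromosome 4. Ifih1, the sensor MDA5, read 364, 428 and 312 in DKO cells and 473, 572 and 555 in WT cells (-0.52 ± 0.29, adjusted p = 0.452). Dhx58, the regulatory sensor LGP2, was at -0.29, and its other tested probe set at -1.19 (adjusted p = 0.338), both with overlapping arrays. Stat2, the STAT specific to type I and III signalling, read 336, 398 and 256 in DKO cells and 308, 147 and 220 in WT cells (0.56 ± 0.38, adjusted p = 0.552), and its arrays overlapped.

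Genes around the pathway were measured from 7 further lists. Of the interferon ligands, 10 of 19 listed had a probe set and 7 of those were too dim to be tested. Ifnb1, the first type I interferon made in most cells, read 3.7, 5.8 and 4.8 in DKO cells and 4.4, 1.5 and 2.5 in WT cells. Ifng, which encodes interferon gamma, rose: it read 259, 424 and 463 in DKO cells and 6.5, 10.0 and 79.1 in WT cells (3.34 ± 0.57, adjusted p = 0.0161). It entered the test through its DKO signals, since 2 of its WT signals were near 0.

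Of 12 other gamma-induced genes tested, 2 rose, against 1.08% of all genes, and 11 lay above 0, against 49.2%. The median log2 difference of the 12 was 0.39. Cxcl9, a chemokine induced almost only by interferon gamma, read 286, 266 and 346 in DKO cells and 4.2, 16.2 and 57.5 in WT cells (3.11 ± 0.52, adjusted p = 0.0139), and it too entered the test through its DKO signals. Nlrc5, the activator of MHC class I genes, read 3452, 3203 and 4140 in DKO cells and 1127, 1998 and 1331 in WT cells (1.30 ± 0.24, adjusted p = 0.0208). Cxcl10, a chemokine that both kinds of interferon induce, did not pass the threshold, and its arrays separated (1.70 ± 0.39, adjusted p = 0.0582). The MHC class I proteasome genes Psmb8 and Psmb10 were at 0.52 and 0.69 (adjusted p = 0.222 and 0.189). Psmb9 at 0.35, Tap1 at 0.43, Tapbp at 0.24, Psme1 at 0.20, Ciita at 0.09 and Cd274 at 0.03 had overlapping arrays. The 1 gene below 0 was B2m at -0.13. A further 3 genes of the list, Ido1, Nos2 and Socs1, were too dim to be tested. All 4 gamma-induced GTPases outside the 34 genes lay above 0, with a median of 0.78 and 0 past the threshold. At an unadjusted p below 0.05 there were 2 of the 4, against 16.3% of all genes. These were Gbp8 at 1.07 (adjusted p = 0.262) and Irgm2 at 0.68 (adjusted p = 0.275).

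These calls were less stable than that of Iigp1. With 1 array left out, Ifng kept its call in 2 of 6 cases, with adjusted p = 0.0529, 0.0693 and 0.0928 without DKO replicates 1, 2 and 3 and 0.0728 without WT replicate 1. Cxcl9 kept it in 3 of 6, with adjusted p = 0.0726 and 0.0850 without DKO replicates 1 and 3 and 0.0547 without WT replicate 1. Nlrc5 kept it in 1 of 6, with adjusted p = 0.0859, 0.0628 and 0.104 without DKO replicates 1, 2 and 3 and 0.0955 and 0.0504 without WT replicates 1 and 3. All 3 differences stayed above 0 in every case.

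**Figure D5:**
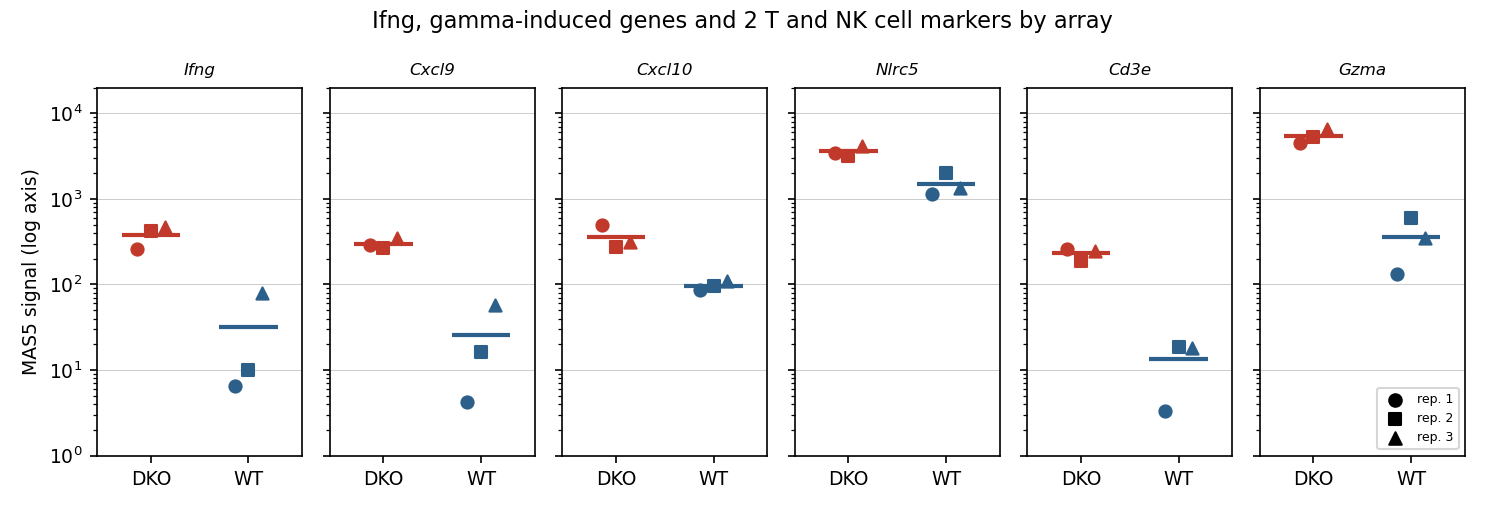
MAS5 signal (log axis) of Ifng, of the gamma-induced Cxcl9, Cxcl10 and Nlrc5, and of the T and NK cell markers Cd3e and Gzma on each array, with DKO left of WT and a line at the mean. All 3 DKO arrays lie above all 3 WT arrays in every panel. Cd3e and Gzma were chosen after their values were seen, and 2 of the 19 tested T and NK cell markers lay below 0.

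Among receptors and JAK-STAT components, 0 of 9 tested genes passed limma's threshold, 1 had an unadjusted p below 0.05 and the median log2 difference was 0.01. The receptor subunits Ifnar1, Ifnar2, Ifngr1 and Ifngr2 were at 0.01, -0.11, 0.27 and 0.74, the last with an adjusted p of 0.363. Jak2, a kinase of the gamma receptor, was at 0.56 ± 0.19 (adjusted p = 0.186), and Jak1 was at -0.28 (adjusted p = 0.677). Of 10 negative regulators of the pathway 0 passed and 2 had an unadjusted p below 0.05, with a median of 0.19, among them the SOCS family member Cish at 1.21 (adjusted p = 0.238) and the STAT inhibitor Pias4 at 1.09 (adjusted p = 0.310). Of 13 nucleic acid sensing genes 0 passed and 3 had an unadjusted p below 0.05, with a median of 0.10, among them the dNTP hydrolase Samhd1 at 0.68 ± 0.22 (adjusted p = 0.175) and the Z-form nucleic acid sensor Zbp1 at 1.06 ± 0.38 (adjusted p = 0.223). Of 43 further type I-induced genes 0 rose and 0 fell, with 23 above 0, 20 below and a median of 0.12. Slfn8, a Schlafen family member, had the lowest adjusted p of these (-1.39 ± 0.33, adjusted p = 0.0653), and the helicase gene Ddx60 was at -1.10 ± 0.32 (adjusted p = 0.135). At an unadjusted p below 0.05 there were 6 of the 43. Over all genes that share was 16.3%, which stands beside the other counts of this paragraph too.

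Markers of other cell types moved with the genotypes, and their part in the differences above was not tested. Over all genes tested, 1.08% rose and 0.633% fell, the shares to set beside each list of this paragraph. Of 19 tested markers of T and NK cells, the main makers of interferon gamma, 8 rose and 0 fell. Their median log2 difference was 2.14, with 17 above 0 and 2 below, Cd247 at -0.41 and Lat at -0.26. Of the 8 that rose, Cd3e, Eomes, Gzmb and Tbx21 had a WT mean below the filter's limit. These 4 entered the test through their DKO signals, so the count and the median are a description. The summed signal of the list was 14696 to 20964 in DKO arrays and 5634 to 6989 in WT arrays. Cd3e, a chain of the T cell receptor complex, read 261, 186 and 246 in DKO cells and 3.3, 18.7 and 17.9 in WT cells, near 0. Cd247 read 2137, 3367 and 1997 in DKO cells and 4062, 2431 and 3447 in WT cells, and Prf1 was at 0.08 with overlapping arrays. Markers of mast cells, basophils and eosinophils rose for 8 of 14 genes, of which Ccr3 and Fcer1a entered the test in the same way, with a summed signal of 35997 to 43632 in DKO arrays and 6142 to 18236 in WT arrays. Plasmacytoid dendritic cell markers, of a cell type that makes much type I interferon, had a summed signal of 7779 to 9257 in DKO arrays and 8372 to 9637 in WT arrays. Their mean centred log2 level ran the other way, at 0.12, 0.25 and 0.03 on the DKO arrays and -0.20, 0.00 and -0.21 on the WT arrays. Of 16 stem cell genes 7 fell and 0 rose, with a summed signal of 22446 to 26275 in DKO arrays and 43755 to 52020 in WT arrays. Of the other lists, 1 of 14 monocyte and neutrophil markers rose (Ccr2), 2 of 13 B lineage and plasma cell markers rose (Igha and Jchain), and 1 of 13 endothelial and stromal markers fell (Emcn).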

How the data were processed

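Lin-Sca1+ bone marrow cells of 3 DKO and 3 WT pools were hybridised to Affymetrix mouse arrays. The intensity values were deposited as MAS5 signals, per the submitters' processing notes, and on the deposited table every array has a trimmed mean of 500 after the top and bottom 2% are taken off. The annotation gave 1 symbol to 34945 probe sets, several to 932 and none to 9160. From these values, 64 control probe sets were left out, log2(signal + 16) was taken, the dimmest 40% of probe sets by mean were left out, and limma 3.58.1 (R 4.3.3, eBayes with an intensity trend) was fitted to 27022 probe sets without a replicate block. A gene is its brightest tested probe set. Members and lists were chosen with earlier results of these data known, and the genes named were every member, the pathway genes past the threshold (up to 4 by smallest p in a list, or else the 2 with the smallest p) and Nr4a1. The receptors, Jak1, Ifnb1, Oas1b, Oas1c, Cxcl10, the Psmb genes and the single markers were named after their values were seen. So were the other gamma-induced genes not past the threshold. Centring arrays on their medians would move the median log2 difference of all probe sets by 0.11. Motifs were searched with Python 3.11.15 in RefSeq promoters of assembly GRCm38.p6. The fits were tested on simulated data. Alternatives changed the pseudocount, filter, normalization, trend, weights, block, threshold, rule for choosing a probe set, and left out each array. Only 3 arrays a genotype limit the precision.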

Additional observations from a re-analysis of the deposited data

How the results depend on the processing

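The rise of Iigp1 held in all 17 alternatives run, with log2 differences of 2.11 to 2.59 and a highest adjusted p of 0.0371, which came without the intensity trend. The median of the GTPases ranged over 0.69 to 0.95, that of the sensor group over -0.55 to -0.26 and that of the IFITM genes over 0.52 to 0.70, so none changed sign. For the counts and values below the cause of a change was not tested, beyond the arrays, genes or threshold a setting itself changes.

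The 370 changed probe sets of the array became 208 with no filter on low values, 88 without the trend, 563 with array quality weights, 738 at a threshold of 0.10, and 104 to 469 with 1 array left out (129, 166 and 104 without DKO replicates 1, 2 and 3, and 133, 469 and 353 without WT replicates 1, 2 and 3). The deviations of arrays with the same replicate number had correlations of 0.142, -0.031 and 0.053, against -0.132 to 0.063 for arrays with different numbers. The highest was that of the replicate 1 arrays, and the numbers were not taken to pair the arrays. With the replicate block there were 312, with 1 interferon-induced gene risen and 0 fallen. The count of interferon-induced genes that rose, 1 in the report, was 3 with array quality weights (Iigp1, Igtp and Ifitm6), 5 at a threshold of 0.10, 2 when a gene's probe sets were averaged (Iigp1 and Xaf1) and 1 to 3 with 1 array left out. The count that fell was 0 to 1 with 1 array left out, and the 1 was Rsad2 without WT replicate 3. Other pathway genes that rose, 3 in the report, were 0 without the trend, 5 with the mean over probe sets and 0 to 4 with 1 array left out. Those that fell, 0 in the report, were 1 with array quality weights, 1 at a threshold of 0.10 and 1 with the mean over probe sets. Without the trend, adjusted p was 0.0686 for Ifng, 0.0527 for Cxcl9 and 0.143 for Nlrc5, while a pseudocount of 64 gave Ifng 2.27 and Cxcl9 2.05 on the log2 scale.

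The median of all 34 genes, -0.21 in the report, was -0.16 with a pseudocount of 64, -0.0118 with the dimmest 60% left out, -0.10 with quantile normalization, -0.10 with median centring, -0.0271 with the mean over probe sets and -0.258 to -0.0830 with 1 array left out. The median of the antiviral genes, -0.31 in the report, was -0.20 with median centring, -0.23 with the mean over probe sets and -0.36 to -0.28 with 1 array left out. With DKO replicate 3 left out the brightest probe set of Ddx58 was another one (-0.30), and the probe set given in the report was then at -1.15 (adjusted p = 0.229). Dim signals limit Mx2, Oasl1 and most interferon ligands.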
